A study of Rattus norvegicus with 16 samples.

Results

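The cytochrome P450 genes of families 1 to 4 were described in the livers of male SD rats that had received saline or the sedative xylazine. Members were all rows of the deposited gene table whose symbol begins with Cyp, a family number from 1 to 4, a subfamily letter and a gene number. The rule found 55 of the 17544 genes in the table, namely 3 in family 1, 29 in family 2, 7 in family 3 and 16 in family 4. Rats were injected intraperitoneally for 28 days with normal saline or with 10, 20 or 40 mg/kg xylazine, an agonist of alpha-2 adrenergic receptors used in veterinary practice. In each of the 4 groups 4 livers were sequenced, which gave 16 libraries; the labels do not state outright that each came from a different rat, and they are called animals here. No genetic change was made in any group, and the labels give neither the age of the animals nor the hour at which tissue was taken. Each library was made from whole liver tissue, so a lower level can mean less RNA per cell or fewer cells of a type, which bulk RNA cannot tell apart.

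P450 enzymes are haem proteins of the endoplasmic reticulum that oxidise drugs, steroids and fatty acids with electrons passed on by P450 oxidoreductase. Members of families 1 to 3 act mainly on foreign compounds and steroids, while family 4 enzymes hydroxylate fatty acids and eicosanoids at or near the end of the chain. Their transcription in liver is controlled by ligand-activated factors: the aryl hydrocarbon receptor (AHR) acts on Cyp1 genes, the constitutive androstane receptor (CAR) on Cyp2b genes, the pregnane X receptor (PXR) on Cyp3a genes and the peroxisome proliferator-activated receptor alpha (PPARα) on Cyp4a genes. In rats the sex-dependent pattern of growth hormone adds a further layer, with Cyp2c11 predominant in males and Cyp2c12 in females.

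Library totals lay between 16059922 and 16956867 estimated counts, and the 55 members took between 2.48% and 3.57% of them. CPM below are counts put on a common library total and scaled by TMM, edgeR's trimmed mean normalization. TPM, which give each gene's share of a library's transcripts after correction for length, were used wherever levels of different genes were compared. The hepatocyte markers Alb, Ttr, Apoa1 and 7 others summed to between 142470 and 170110 TPM in every library, so the tissue label and its markers matched. Of the 55 members, 49 were among the 12732 genes with enough counts to be tested. The other 6 were almost silent. Cyp1b1, which activates polycyclic procarcinogens outside the liver, had 1 to 7 counts per library, Cyp4f18 at most 5, Cyp4f40 at most 4, and Cyp2a3, Cyp2b21 and Cyp4x1 at most 1.

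Promoters are shown for Cyp2t1, which passed the test across doses, and for 2 pairs of genes that share nearly the same promoter but differed in level. Each runs from 250 bases before to 50 bases after the annotated start, 5′ to 3′ on the gene's own strand, in the RefSeq annotation of GRCr8. Capitals mark the nuclear receptor hexamer AGGTCA (or its reverse complement TGACCT) and the AHR core GCGTG (or CACGC), found on either strand; the 2 motifs share no stretch here. Cyp2t1 lies at chr1:91575260-91575559 on the plus strand, Cyp2b1 at chr1:90645869-90646168 and Cyp2b2 at chr1:90722031-90722330, both plus, Cyp4a2 at chr5:134170859-134171158 and Cyp4a3 at chr5:134352187-134352486, both minus.
Cyp2t1: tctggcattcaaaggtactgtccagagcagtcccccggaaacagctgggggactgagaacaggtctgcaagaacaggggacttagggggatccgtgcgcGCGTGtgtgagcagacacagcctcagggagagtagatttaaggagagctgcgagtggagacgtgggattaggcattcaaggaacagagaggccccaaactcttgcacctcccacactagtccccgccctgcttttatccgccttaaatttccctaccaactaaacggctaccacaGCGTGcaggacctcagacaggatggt
Cyp2b1: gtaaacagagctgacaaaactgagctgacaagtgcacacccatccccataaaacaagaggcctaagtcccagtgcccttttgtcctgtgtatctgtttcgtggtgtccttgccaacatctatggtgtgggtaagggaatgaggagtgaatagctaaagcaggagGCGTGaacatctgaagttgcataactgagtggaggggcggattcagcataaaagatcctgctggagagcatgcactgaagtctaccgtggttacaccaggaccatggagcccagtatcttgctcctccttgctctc
Cyp2b2: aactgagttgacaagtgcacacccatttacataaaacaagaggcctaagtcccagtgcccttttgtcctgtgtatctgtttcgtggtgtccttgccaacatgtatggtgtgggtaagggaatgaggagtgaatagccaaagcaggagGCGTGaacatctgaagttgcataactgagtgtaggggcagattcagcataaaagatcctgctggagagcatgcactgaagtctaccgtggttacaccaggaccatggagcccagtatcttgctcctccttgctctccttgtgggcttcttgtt
Cyp4a2: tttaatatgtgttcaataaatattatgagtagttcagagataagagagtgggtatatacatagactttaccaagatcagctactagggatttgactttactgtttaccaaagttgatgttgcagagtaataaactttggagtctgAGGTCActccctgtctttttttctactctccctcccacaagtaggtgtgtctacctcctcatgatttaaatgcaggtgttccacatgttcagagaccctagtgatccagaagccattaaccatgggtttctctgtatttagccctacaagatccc
Cyp4a3: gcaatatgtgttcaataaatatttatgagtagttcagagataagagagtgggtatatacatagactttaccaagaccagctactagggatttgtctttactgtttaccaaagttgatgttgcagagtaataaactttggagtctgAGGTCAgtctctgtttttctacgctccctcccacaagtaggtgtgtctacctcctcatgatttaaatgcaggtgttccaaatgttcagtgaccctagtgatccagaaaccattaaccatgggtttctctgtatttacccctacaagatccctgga
The Cyp2b1 and Cyp2b2 windows were identical at 275 of 283 aligned bases (97.2%), and those of Cyp4a2 and Cyp4a3 at 284 of 295 (96.3%). Each Cyp4a window held 1 hexamer and no core, each Cyp2b window 1 core and no hexamer, and the Cyp2t1 window 2 cores. RefSeq gave promoters for 48 of the 55 members, in 55 windows. A hexamer was present in 17 of these windows (30.9%) against 16.2% of all 33469 promoters, and a core in 13 (23.6%) against 29.7%. These are matches of letters only.

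In saline liver the members summed to 20227 ± 1264 TPM (SD, n = 4), or 2.02% of all transcripts. Cyp2c11, a male testosterone hydroxylase, and Cyp2c13, another male-predominant family 2 enzyme, led with 2395 ± 219 and 2379 ± 394 TPM. They were followed by Cyp3a2, a male-predominant steroid hydroxylase, at 2206 ± 591 TPM, then Cyp2e1, which oxidises ethanol and paracetamol, at 1271 ± 176 TPM, and Cyp1a2, which oxidises caffeine and aromatic amines, at 1045 ± 511 TPM. The first 3 overlapped from animal to animal, as did Cyp2e1 and Cyp1a2, so the order within each set was not larger than its spread. The 10 most abundant members held 69.8% of the members' TPM. Among lipid-oxidising family 4 genes the order was Cyp4f1 at 499.7 ± 12.5 TPM, Cyp4a3 at 349 ± 107, Cyp4v3 at 125 ± 18.9, Cyp4a1 at 75.8 ± 9.19 and Cyp4a2 at 15.4 ± 20.8 TPM, the last with an SD above its mean.

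Summed by family, transcript levels gave unlike values at 40 mg/kg. Family 2 summed to 14206 ± 606 TPM in saline liver and to 16282 ± 545 TPM at 40 mg/kg. Its lowest 40 mg/kg animal (15725) was above the highest saline animal (14817). At 10 and 20 mg/kg family 2 summed to 15300 ± 2081 and 15339 ± 467 TPM, and both groups overlapped with saline. The highest animal at 10 mg/kg (18255) exceeded every 40 mg/kg animal. Family 4 went from 1252 ± 125 with saline to 1518 ± 66.7 TPM at 40 mg/kg, and here too these groups were apart by a small margin (1437 against 1428). It was at 1303 ± 203 and 1325 ± 134 TPM at 10 and 20 mg/kg, both overlapping with saline. The highest animal at 10 mg/kg (1588.7) was level with the highest at 40 mg/kg (1588). Family 1 summed to 1048 ± 513 TPM with saline, 1126 ± 455 at 10, 639 ± 113 at 20 and 609.9 ± 123 at 40 mg/kg, where the groups overlapped because 1 saline animal was at 451. Family 3 was at 3721 ± 686, 4747 ± 1202, 3649.8 ± 518 and 4484 ± 742 TPM in order of dose, also overlapping. TPM are shares of a library, and on that scale the median gene was 0.07 higher (log2) at 40 mg/kg. No test was made on these sums, and how often sums over other genes lie apart was not counted.

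**Figure D1:**
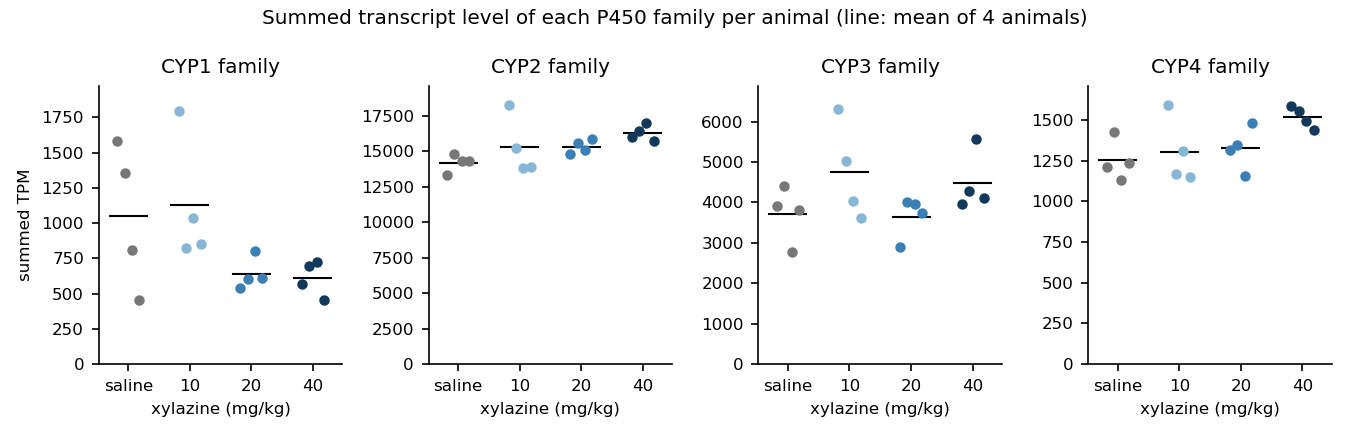
Summed TPM of each P450 family (y axis, linear, from 0) in each animal (points) against dose of xylazine in mg/kg, with the mean of 4 animals as a line. Family 2 and family 4 sums at 40 mg/kg lie above all saline animals (15725 against 14817 and 1437 against 1428 TPM), while family 1 sums narrow to between 453 and 721 TPM. At 10 and 20 mg/kg the sums of both families 2 and 4 overlap with saline.

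Taken gene by gene, few members passed the threshold. Each dose was compared with saline, 40 with 10 mg/kg, and dose was also fitted as a number, which gives a log2 change over the range from saline to 40 mg/kg. All comparisons came from edgeR's quasi-likelihood test over all 12732 genes with Benjamini-Hochberg adjustment at 0.05, and those against saline share the same 4 saline animals. No member passed at 10 mg/kg or at 20 mg/kg, where 0% of all genes passed, at 40 mg/kg, where 1.11% of all genes did, or for 40 against 10 mg/kg (0.361%). Unadjusted p was under 0.05 for 3 members at 10 mg/kg, 6 at 20, 10 at 40 and 7 for 40 against 10 mg/kg. These are 6.12%, 12.2%, 20.4% and 14.3% of the 49, beside 4%, 9.13%, 16.2% and 13.3% of all genes. DESeq2 called none at 10 or 20 mg/kg, 4 members at 40 mg/kg (Cyp4v3, Cyp4f5, Cyp4a1 and Cyp2t1) and Cyp1a2 for 40 against 10 mg/kg. Over all genes, DESeq2 called 1 at 10, 60 at 20, 523 at 40 and 304 for 40 against 10 mg/kg. Limma on log2(TPM + 1) called Cyp4a1 alone, at 40 mg/kg, where it called 167 of all genes.

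The fit across doses called 3 of 49 members (6.12%, beside 2.91% of all genes): Cyp4a1 higher (1 member, 2.04%, beside 1.28% of all genes), and Cyp4v3 and Cyp2t1 lower (4.08%, beside 1.63%). Unadjusted p was under 0.05 for 12 members (24.5%, beside 18.8% of all genes). The median member changed by 0.05 at 40 mg/kg on the log2 scale, with 28 of 49 positive (57.1%, beside 50% of all genes), and by 0.02 across doses. Under total count scaling 33 were positive at 40 mg/kg and the median member was at 0.12, but that scaling also put the median of all genes at 0.06. The 4 animals at 40 mg/kg did not overlap with the saline animals for 7 members (14.3%, beside 9.3% of all genes), of which Cyp2b2, Cyp2c22, Cyp2j10, Cyp3a18 and Cyp4a1 were higher (beside 4.45% of all genes) and Cyp2t1 and Cyp4v3 lower (beside 4.85%). For 40 against 10 mg/kg 3 members did not overlap (6.12%, beside 8%), and Cyp1a2, Cyp2t1 and Cyp4v3 were all lower (beside 4.48%). Intervals limit how large the remaining changes could be. At 40 mg/kg the 95% interval of 31 of 49 members (63.3%) lay within a doubling or halving (log2 of 1 either way), beside 82.9% of all genes, so 18 members could not be bounded in this way.

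**Figure D2:**
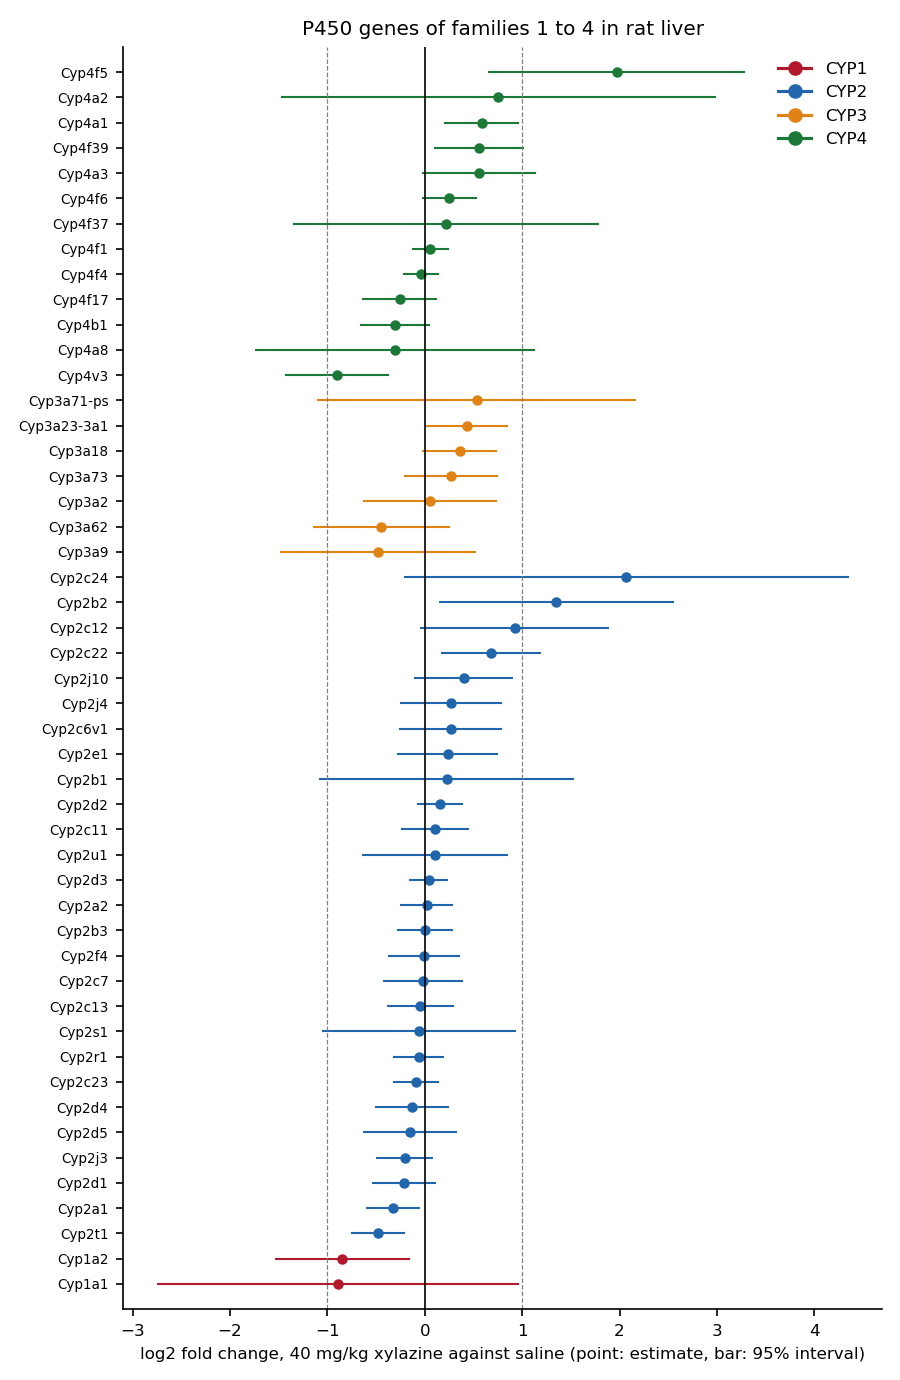
Log2 fold change at 40 mg/kg against saline (x axis) of the 49 tested members, grouped by family (colours), each with its 95% interval from edgeR, and dashed lines at a change of 1 either way. Most family 2 and family 3 intervals cover 0, and the widest belong to genes that vary among animals or are low, such as Cyp2c24, Cyp4a2 and Cyp1a1.

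Cyp4a1 (gene 50549), a fatty acid omega-hydroxylase and a classic PPARα target, rose across doses. Its 4 saline animals had 101, 117, 136 and 138 CPM. Animals at 10 mg/kg had 103, 126, 106 and 162 CPM, those at 20 mg/kg 135, 125, 104 and 164, and those at 40 mg/kg 198, 227, 141 and 171 CPM. Only the highest dose stood clear of saline, and by a narrow margin for its lowest animal. The change across doses was 0.61 ± 0.16 (log2 ± SE; edgeR adjusted p = 0.0494), and at 40 mg/kg it was 0.58 ± 0.18 (edgeR adjusted p = 0.109). The call was lost when any of 12 of the 16 libraries was left out (edgeR adjusted p up to 0.132). It held without saline replicate 3, 10 mg/kg replicate 4, 20 mg/kg replicate 3 or 40 mg/kg replicate 3. It was also lost with dose as its rank (edgeR adjusted p = 0.0806) and with no filter on low counts (edgeR adjusted p = 0.0626).

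Cyp4v3 (gene 266761), whose human counterpart CYP4V2 hydroxylates medium-chain fatty acids, fell across doses. Saline animals had 330.1, 306, 251 and 365 CPM, and the 10 mg/kg animals 273, 259.8, 252 and 300.4 CPM. At 20 mg/kg values were 204, 250.2, 137 and 278 CPM, and at 40 mg/kg 231, 146, 200.5 and 94.2 CPM. All 4 animals at 40 mg/kg lay below all saline and all 10 mg/kg animals. The spread between animals was wider at both higher doses, a difference in spread that was not tested. The change was -0.91 ± 0.22 across doses (edgeR adjusted p = 0.0372) and -0.90 ± 0.25 at 40 mg/kg (edgeR adjusted p = 0.0852). Leaving out any of saline replicates 1, 2 and 4, 10 mg/kg replicates 2, 3 and 4, or 40 mg/kg replicates 2 and 4 ended the call across doses, with edgeR adjusted p up to 0.0805. So did the replicate block (edgeR adjusted p = 0.0606) and, narrowly, no filter on low counts (edgeR adjusted p = 0.05005).

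Cyp2t1 (gene 171380), whose promoter is printed above, also fell. Saline animals had 30.6, 32.1, 28.4 and 29.0 CPM, and the 10 mg/kg animals 27.3, 27.9, 33.1 and 29.4 CPM. Values were 30.6, 25.7, 20.7 and 26.2 CPM at 20 mg/kg and 18.1, 26.5, 23.3 and 18.2 CPM at 40 mg/kg. Saline animals were tightly grouped, and every 40 mg/kg animal was below every saline and 10 mg/kg animal. The change was -0.51 ± 0.12 across doses (edgeR adjusted p = 0.0310) and -0.48 ± 0.13 at 40 mg/kg (edgeR adjusted p = 0.0759). The call ended without saline replicate 2, 40 mg/kg replicate 1 or 40 mg/kg replicate 4, with edgeR adjusted p up to 0.100.

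**Figure D3:**
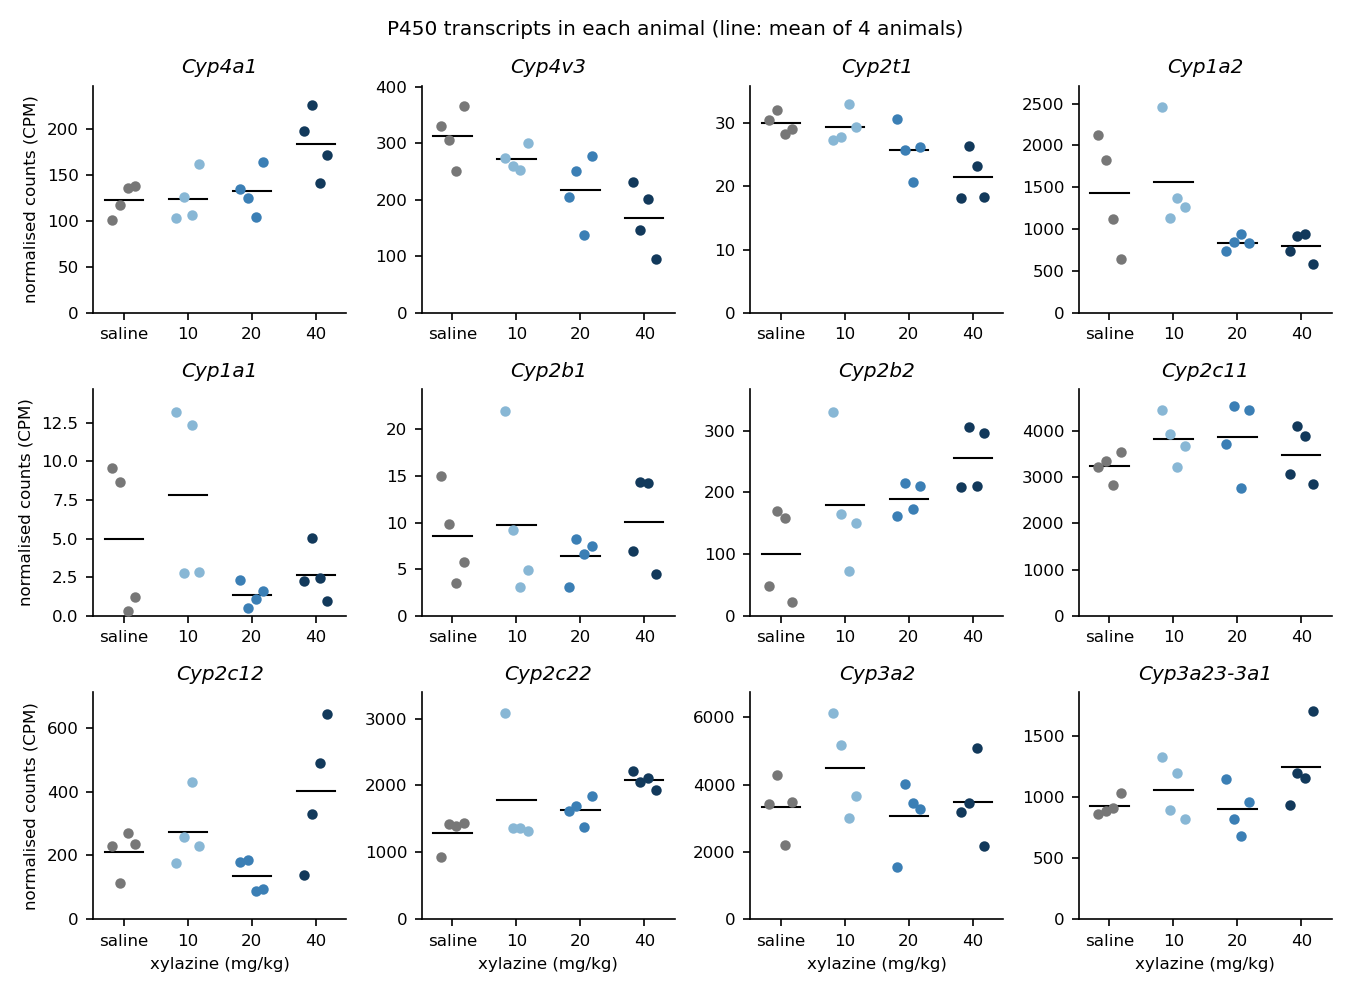
TMM-scaled CPM (y axis, linear, from 0) of 12 members in each animal (points) against dose of xylazine in mg/kg, with the mean of 4 animals as a line. Cyp4a1 is higher and Cyp4v3 and Cyp2t1 are lower at 40 mg/kg than in all 4 saline animals, whereas Cyp1a2 saline animals span 643 to 2119 CPM and overlap with each treated group.

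Cyp1 genes, the markers of AHR activity, had lower estimates at 20 and 40 mg/kg that did not pass. Cyp1a2 was at 2119, 1819.7, 1121 and 643 CPM in saline animals and at 2463, 1128, 1374 and 1268 CPM at 10 mg/kg. At 20 mg/kg it was at 733, 839, 942 and 828 CPM, and at 40 mg/kg at 740.2, 911, 935 and 586 CPM. Saline and 10 mg/kg livers varied widely, and the values at 20 and 40 mg/kg were bunched near the bottom of that range; all 40 mg/kg animals were below all 10 mg/kg animals. The change was -0.85 ± 0.32 at 40 mg/kg (edgeR adjusted p = 0.203), -0.97 ± 0.32 for 40 against 10 mg/kg (edgeR adjusted p = 0.191) and -1.01 ± 0.33 across doses (edgeR adjusted p = 0.112; DESeq2 adjusted p = 0.0255). Cyp1a1, the most inducible AHR target, was scarce, at 9.60, 8.69, 0.302 and 1.22 CPM in saline animals and 2.23, 5.07, 2.42 and 0.991 CPM at 40 mg/kg. At 10 mg/kg it was at 13.2, 2.79, 12.4 and 2.87 CPM, and at 20 mg/kg at 2.29, 0.493, 1.10 and 1.60 CPM. Its estimate of -0.89 ± 0.86 at 40 mg/kg had an interval from -2.74 to 0.96 (edgeR adjusted p = 0.663), which covers both a large fall and a near doubling.

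Cyp2b genes are the usual readout of CAR. Cyp2b2, a barbiturate-inducible enzyme, was at 47.7, 169.9, 159 and 22.9 CPM in saline animals and at 331, 164, 72.5 and 150.1 CPM at 10 mg/kg. It was at 163, 214, 173 and 210.2 CPM at 20 mg/kg and at 208, 305, 211 and 296 CPM at 40 mg/kg. Every 40 mg/kg animal was above every saline animal. The ratio of the highest to the lowest animal was 7.43 with saline, 4.56 at 10 mg/kg, and 1.32 and 1.47 at 20 and 40 mg/kg. Whether this spread differed between doses was not tested. The estimate at 40 mg/kg was 1.35 ± 0.55, with an interval from 0.15 to 2.55 (edgeR adjusted p = 0.250), and did not pass. Cyp2b1, its neighbour, stayed low at 8.55 ± 5.04 CPM with saline and 10.0 ± 5.04 CPM at 40 mg/kg, a difference of 0.22 ± 0.60 (edgeR adjusted p = 0.904). Its interval, from -1.075 to 1.52, covers the Cyp2b2 estimate, so these estimates cannot be told apart. Cyp2b3, a less inducible relative, was at 899 ± 131 and 901 ± 88.8 CPM (difference 0.00 ± 0.13), with a narrow interval from -0.27 to 0.28. Reads of such close copies may be split between them, and with Cyp2b1 and Cyp2b2 summed the difference was 1.28 ± 0.52 (edgeR adjusted p = 0.239).

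Cyp3a genes, the usual readout of PXR, gave no call in any comparison, with 5 of 7 positive at 40 mg/kg and a median of 0.27. Cyp3a23-3a1, the inducible form, was at 858, 884, 909 and 1029.5 CPM in saline animals and at 935, 1190.2, 1151 and 1697 CPM at 40 mg/kg. The groups overlapped through 1 animal, and the difference was 0.43 ± 0.19 (edgeR adjusted p = 0.279). Cyp3a18, a male-predominant steroid hydroxylase, was above all saline animals at 10 mg/kg (1 of 49 members there, 2.04%, beside 2.21% of all genes) and at 40 mg/kg, with differences of 0.42 ± 0.18 and 0.36 ± 0.18 (edgeR adjusted p = 0.999 and 0.329). Cyp3a2 averaged 3339 ± 857 CPM with saline and 3466 ± 1206 CPM at 40 mg/kg, a difference of 0.05 whose interval ran from -0.63 to 0.73. The pseudogene-named Cyp3a71-ps averaged between 1.10 and 1.60 CPM in the 4 groups.

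Cyp4a genes are the P450 targets of PPARα, and 3 of the 4 had positive estimates at 40 mg/kg. Cyp4a3, a fatty acid hydroxylase and the most abundant of them, was at 474, 805, 437 and 544 CPM in saline animals and at 947, 439.6, 659 and 443 CPM at 10 mg/kg. It was at 696, 664, 395 and 848 CPM at 20 mg/kg and at 846, 952, 739 and 776 CPM at 40 mg/kg. The highest dose was high and tightly grouped, though 1 saline animal reached it, and the difference was 0.55 ± 0.27 (edgeR adjusted p = 0.330). Cyp4a2, its near copy and an arachidonic acid hydroxylase, was at 31.2, 122, 3.20 and 8.17 CPM with saline and at 139, 4.78, 72.9 and 11.4 CPM at 10 mg/kg. At 20 mg/kg it was at 48.9, 74.9, 33.2 and 86.9 CPM, and at 40 mg/kg at 79.3, 66.4, 86.5 and 45.4 CPM. The highest animal exceeded the lowest 38.0 times with saline and 29.0 times at 10 mg/kg, but 2.62 and 1.90 times at 20 and 40 mg/kg. Its difference of 0.76 ± 1.02 at 40 mg/kg did not pass (edgeR adjusted p = 0.770), and whether the spread itself differed between doses was not tested.

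Cyp4a2, whose promoter window was identical to that of Cyp4a3 at 96.3% of aligned bases, made up between 0.727% and 13.1% of the pair's sum in single animals. Reads of these near copies may also be split between them, and the part of such splitting in this share was not tested. With the pair summed the difference at 40 mg/kg was 0.56 ± 0.31 (edgeR adjusted p = 0.385). Cyp4a8, a fatty acid hydroxylase better known from kidney, was at 5.85 ± 2.87 and 4.73 ± 2.93 CPM. All 4 Cyp4a genes together summed to 444 ± 125 TPM with saline, 480.2 ± 166 at 10, 524 ± 119.6 at 20 and 691 ± 81.0 TPM at 40 mg/kg.

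**Figure D4:**
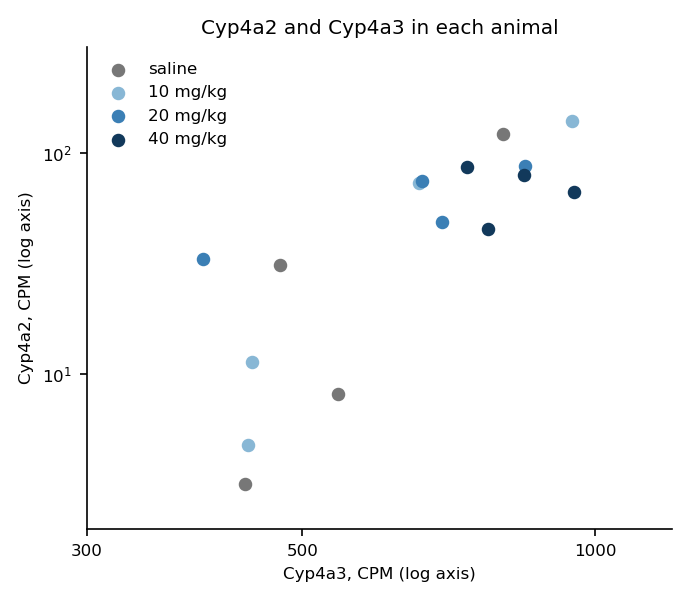
Cyp4a2 against Cyp4a3 in each animal, both in CPM on log axes, coloured by dose. The 4 lowest Cyp4a2 values, between 3.20 and 11.4 CPM, belong to saline or 10 mg/kg animals, while all 20 and 40 mg/kg animals have at least 33.2 CPM. Reads of these near copies may be split between them.

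Cyp2c genes carried most of the family 2 level. Cyp2c11 was at 3229 ± 304 CPM with saline and 3473 ± 614 CPM at 40 mg/kg, a difference of 0.11 with an interval from -0.23 to 0.44 (edgeR adjusted p = 0.799). Cyp2c12, the female-predominant steroid sulfate hydroxylase, was at 229, 112, 269 and 236 CPM in saline animals and at 178, 257.5, 431 and 229.8 CPM at 10 mg/kg. It was at 179, 187, 88.1 and 93.5 CPM at 20 mg/kg and at 139, 332, 490.4 and 644 CPM at 40 mg/kg. The 40 mg/kg animals spread from within the saline range to well above it, 1 animal at 10 mg/kg was also above it, and the difference was 0.92 ± 0.45 (edgeR adjusted p = 0.330). Cyp2c22, a hepatic retinoic acid hydroxylase, was at 925, 1418, 1399 and 1435 CPM with saline and at 2213, 2056, 2105 and 1926 CPM at 40 mg/kg. It was clear of all saline animals, and at 20 mg/kg it was at 1614, 1693, 1385 and 1843 CPM. Its difference of 0.68 ± 0.24 at 40 mg/kg did not pass (edgeR adjusted p = 0.163). Replicate 1 at 10 mg/kg had 3089.9 CPM beside 1323 to 1361 in the other 3 animals of its group, and without it Cyp2c22 passed at 40 mg/kg (0.68, edgeR adjusted p = 0.0207) and across doses (0.71, edgeR adjusted p = 0.00843). The estimate at 40 mg/kg stayed at 0.68, and Cyp2c22 passed in no fit that left out another library. Saline replicate 1, at 925 CPM, also lay far from the rest of its group.

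Several members had an unadjusted p under 0.05 in 1 to 3 comparisons and did not pass the adjusted threshold. Cyp4f5, a leukotriene and fatty acid hydroxylase, was at 0.0578, 0.719, 0.302 and 0.515 CPM in saline animals and at 1.81, 1.97, 1.92 and 0.799 CPM at 20 mg/kg, with 3 counts in a library worth between 0.177 and 0.187 CPM. The groups did not overlap (2 of 49 members at 20 mg/kg, 4.08%, beside 4.55% of all genes; the other was Cyp2j10), and the difference was 2.02 ± 0.62 (edgeR adjusted p = 0.320). At 40 mg/kg Cyp4f5 was at 0.587, 0.826, 3.0 and 1.87 CPM, which overlaps with saline, and the difference was 1.97 ± 0.62 (edgeR adjusted p = 0.122). Cyp2j10, a member of the arachidonic acid epoxygenase subfamily, was at 1.21, 0.899, 1.03 and 0.966 CPM with saline and at 1.33, 1.36, 2.14 and 1.23 CPM at 20 mg/kg, a difference of 0.56 ± 0.23 (edgeR adjusted p = 0.490). Cyp2j3, its more abundant relative, was at 217 ± 29.2 CPM with saline and 177 ± 26.0 CPM at 20 mg/kg, a difference of -0.29 ± 0.13 (edgeR adjusted p = 0.536). At 10 mg/kg Cyp2j4, another epoxygenase, was at 48.3, 96.1, 53.3 and 57.3 CPM beside 35.7, 35.7, 48.4 and 42.0 CPM, with 1 animal far above the others and a difference of 0.66 ± 0.24 (edgeR adjusted p = 0.999). Cyp4f39, an omega-hydroxylase of very long-chain fatty acids in skin, was at 18.03 ± 7.81 CPM with saline and at 24.5 ± 1.78, 25.8 ± 3.83 and 26.5 ± 3.03 CPM in order of dose. Its difference of 0.56 ± 0.21 at 40 mg/kg did not pass (edgeR adjusted p = 0.208), and without saline replicate 4, at 29.1 CPM, it was 0.88 (edgeR adjusted p = 0.0266). Cyp4f37 was at or under 1.98 CPM in all libraries, with 0, 0.248, 0.414 and 0.0667 CPM at 10 mg/kg. Its difference was -2.37 ± 0.93 at 10 mg/kg against saline (edgeR adjusted p = 0.999) and 2.59 ± 0.92 for 40 against 10 mg/kg (edgeR adjusted p = 0.225), and both rest on libraries near the floor.

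Among the remaining abundant members, Cyp2e1 was at 1481 ± 185 CPM with saline and 1742 ± 293 CPM at 40 mg/kg, a difference of 0.23 whose interval ran from -0.27 to 0.74 (edgeR adjusted p = 0.679). Cyp2a1, a steroid 7-alpha hydroxylase that is higher in females, was at 285, 249, 257 and 311 CPM with saline and at 185, 254, 258 and 181 CPM at 40 mg/kg. Of the treated animals 2 lay below the saline range, and the difference was -0.33 ± 0.13 (edgeR adjusted p = 0.203). The 5 male-predominant members Cyp2c11, Cyp2c13, Cyp2a2, Cyp3a2 and Cyp3a18 had a median of 0.05 at 40 mg/kg, and the 4 female-predominant members Cyp2c12, Cyp2c7, Cyp2a1 and Cyp3a9 one of -0.17. None of the 9 passed in any comparison. The Cyp2d genes, which clear many basic drugs, had differences between -0.21 and 0.16 at 40 mg/kg, with 2 of 5 positive.

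The median member varied more among animals of a group than the median gene. The SD of log2 CPM within groups had a median of 0.32 over the 49 members, beside 0.20 over all 12732 genes tested. It was widest for Cyp2c24 (1.66), Cyp4a2 (1.64) and Cyp1a1 (1.40), and smallest for Cyp4f1 (0.10), Cyp4f4 (0.11) and Cyp2d3 (0.12). At 10 mg/kg, replicate 1 had the highest value of its group for 20 of 49 members and the lowest for 15, the highest of all 16 libraries for 13, and a member sum of 27952 TPM beside 19495 to 22277 in the other 3. The 13 include targets of several receptors, with 22.0 CPM of Cyp2b1, 331 of Cyp2b2, 2463 of Cyp1a2, 6127 of Cyp3a2 and 139 of Cyp4a2. At 20 mg/kg, replicate 3 had the lowest value of its group for 31 of 49 members in CPM, although its member sum of 21041 TPM was not the lowest of the group. The same library had the highest TMM factor (1.10), and its Kupffer cell markers summed to 1133.5 TPM beside 450.1 to 557 TPM in the other 3, whose part in these values was not tested. Highest and lowest values were counted over the 49 members only. They were not counted over all genes, so these counts are not shown to be particular to P450 genes.

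Known targets of each receptor were then read from the same fit, P450 genes and others side by side. These lists overlap, so that Cyp2b1, Cyp2b2 and Cyp3a23-3a1 stand under both CAR and PXR. The lists were chosen with earlier results of these data known, so call shares beside all genes do not test a list. Of 18 CAR targets tested, 13 had a positive estimate at the highest dose (median 0.20), and of 18 PXR targets 12 had one (median 0.24), beside a median of 0.00 over all genes. The 7 P450 genes under CAR had a median of 0.22 and the 8 under PXR one of 0.24. By edgeR only Aldh1a1, a retinaldehyde dehydrogenase on both lists, rose at 40 mg/kg, from between 26.7 and 69.5 CPM in saline animals to between 74.6 and 246 CPM (1.78 ± 0.38, edgeR adjusted p = 0.0440), a call lost without any 1 of 13 libraries. Across doses Abcb1b, a drug efflux pump listed under PXR, fell (-2.43 ± 0.58, edgeR adjusted p = 0.0366), a call lost without any 1 of 6 libraries. No other CAR or PXR target passed in these 2 comparisons. Of all genes, 0.471% were called higher at 40 mg/kg and 1.63% lower across doses. At 10 mg/kg 14 of 18 were positive on each list (medians 0.23 and 0.26), and at 20 mg/kg the medians were -0.02 and -0.03.

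Of 10 AHR targets tested, 3 had a positive and 7 a negative estimate at the highest dose (median -0.14), and edgeR called none in any comparison. The 3 P450 genes among them, Cyp1a1, Cyp1a2 and Cyp2s1, had a median of -0.85 and the 7 other genes one of -0.09.

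PPARα targets were the receptor list with most calls, and also the longest, with 29 tested beside 18 for CAR, 18 for PXR and 10 for AHR. At 40 mg/kg 23 of 29 tested were positive, with a median of 0.30; the 5 P450 genes among them had a median of 0.55 and the 24 others one of 0.27. Ehhadh, the bifunctional enzyme of peroxisomal oxidation, rose from between 250.2 and 289.6 CPM to between 375 and 569 CPM (0.76 ± 0.15, edgeR adjusted p = 0.0240). Plin2, a lipid droplet coat protein, rose by 0.69 ± 0.16 (edgeR adjusted p = 0.0466). These were the 2 of 29 targets called higher at 40 mg/kg, beside 0.471% of all genes. Leaving out 1 library at a time lost the call for Ehhadh in 5 of 16 cases and for Plin2 in 12. Across doses 8 of the 29 targets rose (beside 1.28% of all genes) and none fell: Cyp4a1, Ehhadh, Plin2, the peroxisomal thiolase Acaa1b, the thioesterases Acot2, Acot3 and Acot4, and the carnitine transferase Cpt2. Their changes ran from 0.54 for Cpt2 upward, and Acot4 changed most (1.20 ± 0.24, edgeR adjusted p = 0.0194). Cyp4a1 was the only P450 gene among the 8. This list was chosen with earlier results of these data known. The shares beside all genes therefore cannot test whether PPARα targets were called more often than other genes. With 1 library left out at a time, the calls across doses of Ehhadh and Acot4 were never lost, that of Plin2 was lost in 2 of 16 cases, Acot3 in 4, Cpt2 in 7, Acaa1b in 9 and Acot2 in 11.

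**Figure D5:**
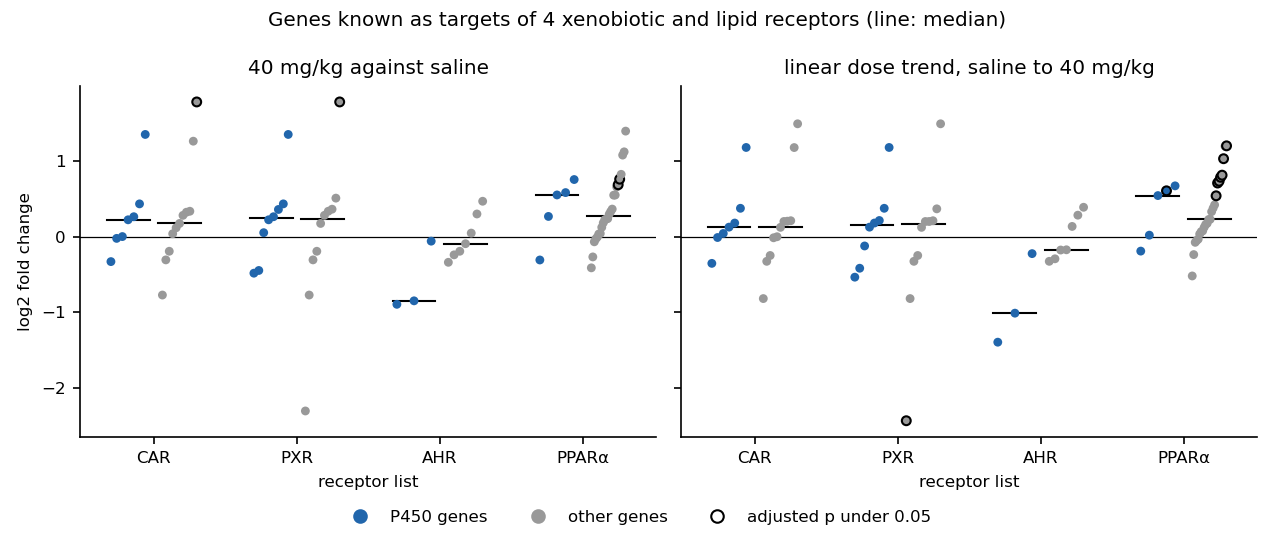
Log2 fold change of each tested target (points) of CAR, PXR, AHR and PPARα, at 40 mg/kg against saline and across doses, with P450 genes in blue, other genes in grey, a line at each median and a black ring where edgeR's adjusted p is under 0.05. Among P450 genes only Cyp4a1 is ringed, and the medians of P450 genes at 40 mg/kg are 0.22 for CAR, 0.24 for PXR, -0.85 for AHR and 0.55 for PPARα.

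Transcripts of the receptors themselves did not pass. At 40 mg/kg Nr1i3 (CAR) differed by 0.05, Nr1i2 (PXR) by -0.14, Ahr by -0.14 and Ppara by -0.06, with edgeR adjusted p between 0.619 and 0.962. Por, the oxidoreductase that serves all microsomal P450 enzymes, differed by 0.28 (edgeR adjusted p = 0.418), and none of 6 genes for P450 partners or of 8 genes for haem synthesis passed in any of the 5 edgeR comparisons. Of 17 regulators of P450 genes, Hlf, a clock-controlled bZIP factor, passed, and it rose at 40 mg/kg (0.61 ± 0.13, edgeR adjusted p = 0.0344) and across doses (0.63 ± 0.13, edgeR adjusted p = 0.0220). The call at 40 mg/kg was lost in 9 of 16 fits without 1 library and with the replicate block (edgeR adjusted p = 0.0530), and that across doses in 1 of 16. Of all genes, 0.471% were called higher at 40 mg/kg and 1.28% across doses. The list of regulators too was chosen with earlier results of these data known.

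Some members are expressed in zones of the liver lobule, so zone markers and markers of other liver cells were read as well. Of 12 pericentral genes, which include Cyp2e1 and Cyp1a2, 4 were positive at 40 mg/kg, where 50% of all genes were. Only Axin2 passed, across doses (0.75, edgeR adjusted p = 0.0281), where 1.28% of all genes were called higher. Its call was lost in 4 of 16 fits without 1 library. Of 10 periportal genes 9 were negative at 40 mg/kg, where Pck1 (-1.14, edgeR adjusted p = 0.0200) and Sds (-2.76, edgeR adjusted p = 0.0424) fell (beside 0.636% of all genes). Pck1 also fell for 40 against 10 mg/kg (-1.24, edgeR adjusted p = 0.0200). Across doses 4 of the 10 fell (beside 1.63% of all genes): Pck1 (-1.28, edgeR adjusted p = 0.0112), Sds (-2.94, edgeR adjusted p = 0.0265), Cps1 (-0.43, edgeR adjusted p = 0.0451) and Etnppl (-1.22, edgeR adjusted p = 0.0494). Without 1 library, the call of Sds was lost in 10 of 16 fits at 40 mg/kg and in 3 across doses. Those of Cps1 and Etnppl across doses were lost in 13 and 12. The call of Pck1 was lost in 2 fits at 40 mg/kg and in 4 for 40 against 10 mg/kg, but never across doses. Mesothelial markers summed to 8.73 ± 5.16 TPM with saline (1.86 to 13.95) and 18.4 ± 6.55 TPM at 40 mg/kg (10.55 to 25.81), 8 of 8 were positive, none passed, and Upk1b was listed at 0 in 1 or more saline animals. Kupffer, endothelial and cholangiocyte markers gave no call. Of 9 stellate markers tested Pdgfrb passed, across doses (0.44, edgeR adjusted p = 0.0351), beside 1.28% of all genes called higher. That call was lost in 5 of 16 fits without 1 library. The zone and marker lists were chosen with earlier results of these data known. Their call shares beside all genes therefore do not test a zone or a cell type. The part of these cell types and zones in the values of P450 genes was not tested.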

How the data were processed

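RNA of 16 rat livers was sequenced, 4 from each of 4 dose groups. Per the submitters' processing notes, the authors used Bowtie2, RSEM and DESeq2 with the build mRatBN7.2. The roles, versions and strandedness are not given in the sources used here. The authors deposited expected counts per gene, which need not be whole (92.2% to 93.0% were whole); they were rounded here. Per the file headers, the authors also deposited TPM, used here for sums and for levels between genes, and FPKM, which entered no test. A further 16 per-sample columns and 16 columns of averages were not used.

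Members are the 55 genes whose symbols begin with Cyp, a family number from 1 to 4, a letter and a number, and all 55 matched RefSeq symbols. Members and gene lists were chosen with earlier results of these data known. With R 4.3.3, edgeR 4.0.16 (TMM scaling, factors 0.924 to 1.10, filter of 10 counts, robust quasi-likelihood test) was fitted to all 16 libraries, and p-values were Benjamini-Hochberg adjusted over 12732 genes in each of 5 comparisons. The threshold was 0.05 and intervals are 95% intervals. Standard errors were taken from the fold change and its F value. A floor is 3 counts, and covers counting error only. Alternatives were DESeq2 1.42.0, limma 3.58.1 on log2(TPM + 1), other scalings and filters, a replicate block, the compared groups alone, dose as its rank and each library left out. Summing paralog pairs was added after the data were seen. The procedure was tested on simulated data.

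Named with values were members past the threshold in any comparison, the 5 with the smallest p in each, the prototype inducible and sex-predominant genes, and the 5 most abundant. From the other lists, genes past the threshold, 4 receptor genes and Por were named. Other members named were chosen after their values were seen. No label ties each library to its own rat, so p-values measure the spread between these samples, which may be technical in part.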

Additional observations from a re-analysis of the deposited data

Results flagged for a closer look

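In 6 of 96 groups of 4 animals examined over 24 named genes, 1 animal lay far from the other 3 by Dixon's criterion, and chance alone gives about 1 in 20. Cyp2c22 was at 925 CPM in saline replicate 1 beside 1399 to 1435 CPM in the others, and at 3090 CPM in replicate 1 at 10 mg/kg beside 1323 to 1361 CPM. Cyp2j3 was at 173 CPM in saline replicate 3, with 225 to 234 CPM in the rest of its group. Cyp3a18 was at 668 CPM in the same animal, with 986 to 1029 CPM in the rest. Cyp2j10 was at 2.14 CPM in replicate 3 at 20 mg/kg beside 1.23 to 1.36 CPM. Cyp4f5 was at 0.799 CPM in replicate 4 at 20 mg/kg beside 1.81 to 1.97 CPM.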

How the results depend on the processing

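Counts of P450 genes past the threshold were 0 by edgeR in the 4 comparisons between groups and 3 across doses. At 40 mg/kg the count was 1 with total count scaling, 4 with the DESeq2 test and 1 with limma on TPM. For 40 against 10 mg/kg DESeq2 called 1. Across doses the count was 1 with no filter, 2 with the replicate block, 2 with dose as its rank and 4 with the DESeq2 test, which added Cyp1a2. Over all genes DESeq2 called 1, 60, 523 and 304 at 10, 20, 40 and 40 against 10 mg/kg, and 752 across doses; limma called 2 at 20 mg/kg, and the compared groups alone gave 73 for 40 against 10 mg/kg. Leaving out 1 library gave 0 to 1 P450 gene at 40 mg/kg and for 40 against 10 mg/kg, 0 to 3 across doses and 0 at the lower doses. Over all genes it gave 0 to 1, 0 to 19, 27 to 198, 2 to 120 and 127 to 405 in the same order. The count across doses was 0 without saline replicate 2 and without 40 mg/kg replicate 4. No called value changed sign, and of 117 uncalled P450 results 29 had another sign in at least 1 setting. The cause of these differences was not tested.

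With the replicate number as a block, 2 P450 genes passed across doses (Cyp4a1 and Cyp2t1, not Cyp4v3), and 105, 34 and 311 of all genes at 40, 40 against 10 mg/kg and across doses. Pairs with the same number had a mean correlation of 0.018 (-0.10 to 0.28), beside -0.006 (-0.26 to 0.19) for pairs with other numbers. Of 16 libraries, 5 were closest to one of their own number. These values cannot show whether the number marks a shared batch. Of genes called, 60 were higher and 81 lower at 40 mg/kg, beside 91 and 50 with total count scaling and 122 and 45 with limma; across doses these were 163 and 208, 276 and 112, and 400 and 84. Genes under about 1 CPM lie near the counting floor.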
